A study of Homo sapiens with 8 samples.

Results

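The comparison described here sets 4 MOLM13 libraries in which IGF2BP2 was depleted or mutant against 4 in which it was intact. The loss libraries are the 2 IGF2BP2 knockdown libraries and the 2 mutant rescue libraries, and the intact libraries are the 2 control and the 2 rescue libraries. These are 8 of the 8 libraries of the series. MOLM13 is a human acute myeloid leukemia line of monocytic type with a KMT2A fusion, and poly(A) RNA of its cells was sequenced. Per the labels, the knockdown cells carried a short hairpin against IGF2BP2, the mutant rescue cells were given a mutant form of the gene, the control cells were wild type, and the rescue cells were given IGF2BP2. The labels list infection with virus, and puromycin where selection was needed, for all groups alike. Which hairpin, mutation and vector were used, and whether control cells received an empty vector, is not stated in the labels.

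The layout crosses IGF2BP2 function (loss or intact) with the presence of a rescue construct. Knockdown is set against control without a construct, and mutant rescue against rescue with one. The function effect is the difference of loss from intact averaged over the 2 pairs, with the construct kept as a block. It was fitted by limma to the authors' log2 normalized values, and a gene is said here to be called where its Benjamini-Hochberg adjusted p was below 0.05. A difference of 1 on this scale is a doubling of the normalized value, but which normalization option was used is not stated in the labels. In the authors' deposited table the log2 fold change of each of the 1666 genes called in knockdown against control was larger than the difference of the log2 values, by a median factor of 1.34 (1.3 for those above the median level and 1.47 for the others). The authors' deposited table has, for example, -1.71 for PRMT6 and 2.25 for LYZ in that pair, where the differences of the log2 values were -1.20 and 1.92. For the 1368 genes called in mutant rescue against rescue the median factor was also 1.34. It was 1.24 for those above the median level and 2.03 for the others. The ratios given here are those of the normalized values and may therefore be understated. Nothing in the labels says that replicates came from separate cultures, so the p-values measure the spread between these libraries only. In bulk RNA, fewer cells of a type and less RNA per cell cannot be told apart.

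IGF2BP2 is an RNA-binding protein of the insulin-like growth factor 2 mRNA-binding family. It reads N6-methyladenosine (m6A), a methyl mark on adenosines of mRNA, and is known for prolonging the life and promoting the translation of the transcripts it binds. In acute myeloid leukemia it is known as a factor that leukemic cells depend on. Myeloid leukemia cells that leave the cycle and mature along the monocytic line are known to lose the HOXA program and to gain lysosomal and phagocyte genes. The gene groups described here were listed with that background in mind and with earlier results of these data known.

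All 11 MOLM13 identity genes passed the filter on low values, among them PTPRC, CD33, SPI1, FLT3, HOXA9 and MEIS1. Of 19 markers of T, B, erythroid, platelet, stromal, endothelial and epithelial cells, 15 were listed above 0 and 3 passed the filter. Those were PECAM1, which myeloid cells also express, and the keratins KRT8 and KRT18. The T cell marker CD3D stayed in every library below 1 ppm of the summed linear values, and CD3E, MS4A1, HBA1 and PPBP were listed at 0 or not listed. Summed without PECAM1, these markers made up 8.52 to 10.37 ppm in loss libraries and 9.71 to 12.21 ppm in intact libraries. The sequencing depth is unknown, since the deposited table holds normalized values and no counts. Replicates differed by an SD over genes of 0.148 between the knockdown libraries, 0.303 between the mutant rescue libraries, 0.212 between the control libraries and 0.232 between the rescue libraries, on the log2 scale.

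Of 13016 genes tested, 1015 (7.8%) were called, 561 (4.31%) higher and 454 (3.49%) lower in loss than in intact libraries. The median difference over all tested genes was -0.001. All 561 and all 454 had the same sign in both pairs. In 560 of the higher and 452 of the lower genes the libraries did not overlap within either pair, against 12.2% of all tested genes apart in this way with loss higher and 10.2% with loss lower. The 8 libraries were fully apart for 446 of the higher and 399 of the lower genes, which over all tested genes was the case for 7.08% and 6.95%. The call rests on these same values and on agreement between the pairs. The shared signs and the separation therefore follow largely from the call and are no separate support for it. Most differences were moderate, with 35 of the higher and 5 of the lower genes at 1 log2 unit or more. Leaving out 1 library changed the counts strongly in 4 cases: 247 genes were called without knockdown replicate 1, 319 without knockdown replicate 2, 241 without control replicate 1 and 411 without rescue replicate 1. Between 98.3% and 99.6% of those were among the 1015. The count was also 199 without the construct term, 625 with no filter on low values, 2284 with the group means model and 3368 with library weights, and the counts within the gene lists moved with it.

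Each pair was also tested on its own. Knockdown differed from control for 12.8% of genes, and mutant rescue from rescue for 10.5%. Of these calls 336 were shared with the same sign, 193 higher and 143 lower, which is 20.2% of the calls of knockdown against control and 24.6% of those of mutant rescue against rescue. All 336 were also called in the function effect. A further 54 genes were called in both pairs with opposite signs. The genes called higher had a median difference of 0.54 in knockdown against control and 0.48 in mutant rescue against rescue, and those called lower had medians of -0.53 and -0.41.

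**Figure D1:**
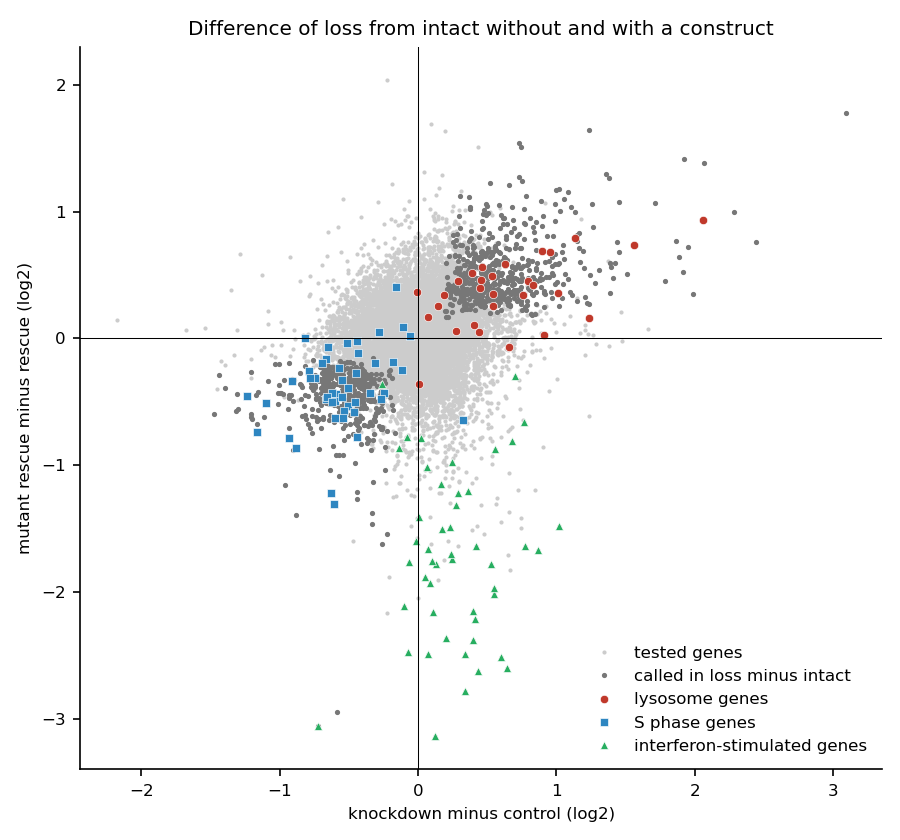
Difference of knockdown from control (horizontal axis) and of mutant rescue from rescue (vertical axis) on the log2 scale, 1 point per tested gene. Genes called in the function effect lie along the diagonal, lysosomal genes in the upper right, S phase genes in the lower left, and interferon-stimulated genes far below 0 on the vertical axis only.

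IGF2BP2 itself (GRCh38.p14 chr3:185643130-185825042, protein coding) had log2 levels of 10.24 and 10.25 in knockdown and 11.03 and 10.68 in mutant rescue libraries, against 10.94 and 10.89 in control and 11.36 and 11.13 in rescue libraries. The knockdown libraries were the lowest of all, and each loss pair lay below its own intact pair. Over all 8 libraries the groups overlapped, because the transcript level in mutant rescue libraries, where reads from a construct and from the gene cannot be told apart, reached that of the control. The function effect was -0.53 (SE 0.11, limma adjusted p = 0.0184), composed of -0.67 in knockdown against control (adjusted p = 0.0147) and -0.39 in mutant rescue against rescue (adjusted p = 0.084). The call was lost without knockdown replicate 1 (adjusted p = 0.0786), knockdown replicate 2 (0.0713), control replicate 1 (0.0789) or rescue replicate 1 (0.0635), and the adjusted p was 0.149 without the construct term. An exact permutation of function within the pairs, over 36 arrangements, gave a two-sided p of 0.0556, the smallest this layout allows.

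The title of the series names PRMT6 and MFSD2A beside IGF2BP2. PRMT6 (chr1:107056674-107059294), an arginine methyltransferase of histones, had log2 levels of 8.20 and 8.08 in knockdown and 8.49 and 8.49 in mutant rescue libraries, against 9.39 and 9.30 in control and 8.81 and 8.70 in rescue libraries. All 4 loss libraries lay below all 4 intact libraries. The difference was -0.73 (SE 0.17, limma adjusted p = 0.0339), a ratio of 0.601 of loss to intact. It was -1.20 in knockdown against control (adjusted p = 0.000938) and -0.26 in mutant rescue against rescue (adjusted p = 0.138), and these differed from each other by 0.94 (interaction, adjusted p = 0.0153). The exact permutation test gave a two-sided p of 0.0556, the smallest possible. The call was lost without knockdown replicate 1 (adjusted p = 0.114), knockdown replicate 2 (0.0969), control replicate 1 (0.117), control replicate 2 (0.0816) or rescue replicate 1 (0.0595), without the construct term (0.0628), and without the filter on low values (0.063).

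MFSD2A (chr1:39955145-39969956), a transporter of lysophospholipids, had log2 levels of 9.05 and 8.97 in knockdown and 8.87 and 8.60 in mutant rescue libraries, against 8.51 and 8.53 in control and 8.996 and 8.734 in rescue libraries. The loss and intact libraries were interleaved. Its difference of 0.18 (SE 0.14) was not called (limma adjusted p = 0.478, exact permutation p = 0.278, two-sided). Knockdown was above control by 0.49 (adjusted p = 0.0469), while mutant rescue minus rescue was -0.13 (adjusted p = 0.527). The interaction of -0.62 was not called (adjusted p = 0.0864). With library weights the difference was 0.37 and was called (adjusted p = 0.0434). Without 1 library it was 0.1 (without knockdown replicate 1) to 0.296 (without mutant rescue replicate 2), with 0.112 without control replicate 1, 0.122 without control replicate 2 and 0.294 without rescue replicate 1, and was not called.

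**Figure D2:**
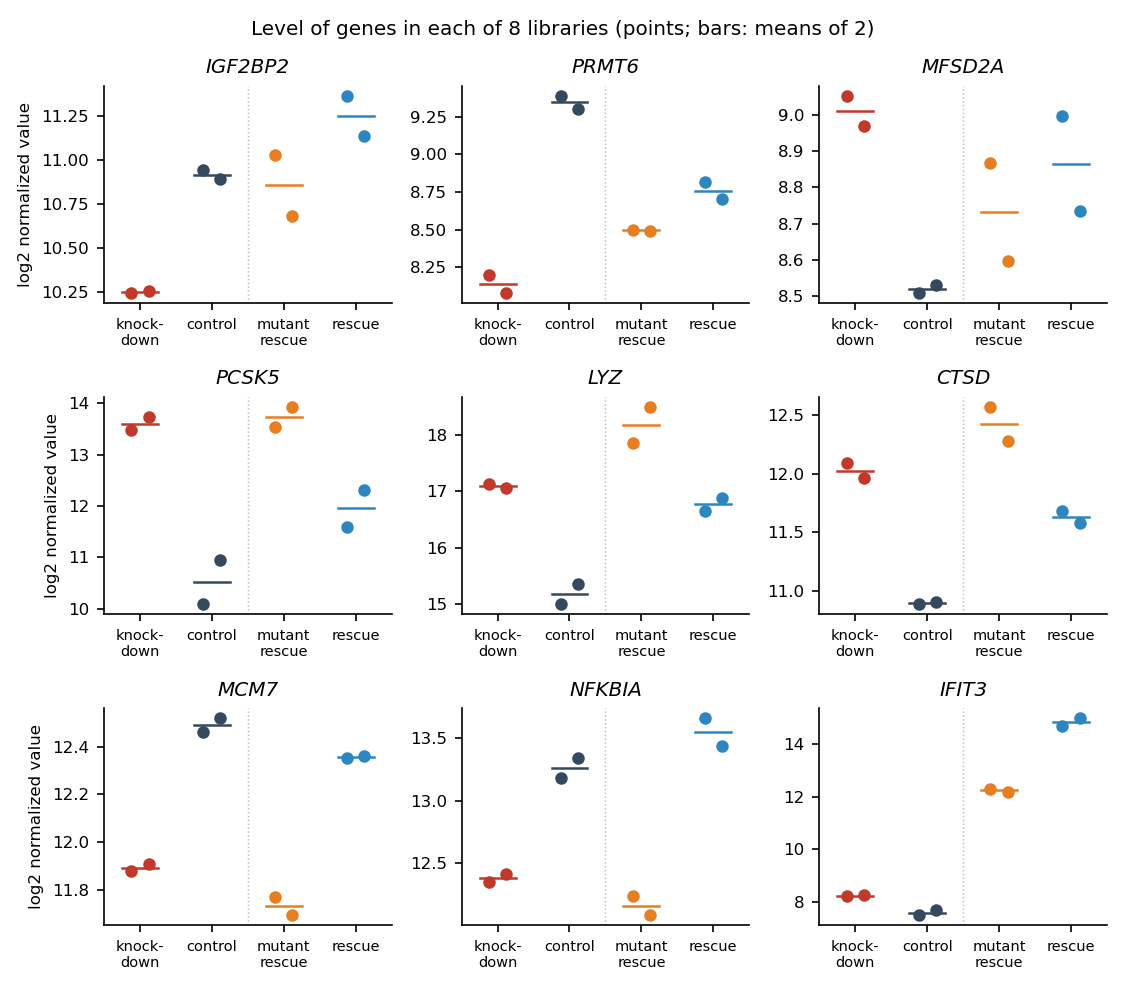
Log2 normalized value of 9 genes in each library; points are libraries and short lines the means of 2, with knockdown beside control and mutant rescue beside rescue in each panel, and each panel with its own vertical range that does not start at 0. PCSK5, LYZ and CTSD are higher and MCM7 and NFKBIA lower in both loss groups than in their intact partners, MFSD2A is interleaved, and IFIT3 is highest in rescue and lowest in control.

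Among the genes that were higher in loss libraries, those that encode lysosomal proteins were many: 16 of the 29 tested members of the lysosome list were called higher and 0 lower, against 4.31% of all genes called higher. Their median difference was 0.46, and 28 of 29 had a positive sign. The mean log2 level of the list was 10.59 and 10.58 in knockdown and 10.82 and 10.70 in mutant rescue libraries, against 9.93 and 9.97 in control and 10.43 and 10.36 in rescue libraries. Every loss library was above every intact library. Without knockdown replicate 1, knockdown replicate 2 or control replicate 1 the number called fell to 7 each, and without rescue replicate 1 to 10, while the list median stayed between 0.41 and 0.48. Without the construct term 1 member was called.

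The 4 lysosomal genes with the smallest adjusted p were hydrolases. CTSD, the aspartic protease cathepsin D, had log2 levels of 12.09 and 11.96 in knockdown and 12.57 and 12.28 in mutant rescue libraries, against 10.89 and 10.90 in control and 11.68 and 11.58 in rescue libraries. It was higher in loss by 0.96 (SE 0.10, limma adjusted p = 0.00213), with no overlap between the 4 and 4 libraries. GAA, the acid alpha-glucosidase that breaks down glycogen in lysosomes, had 10.80 and 10.85 in knockdown and 11.25 and 10.95 in mutant rescue libraries, against 10.00 and 9.76 in control and 10.51 and 10.33 in rescue libraries. Its difference was 0.81 (SE 0.11, adjusted p = 0.00465). DNASE2, the acid endonuclease that degrades DNA of engulfed cells, was at 11.13 and 11.21 in knockdown and 11.63 and 11.39 in mutant rescue libraries, against 9.01 and 9.21 in control and 10.64 and 10.51 in rescue libraries. That is 2.83-fold higher in loss, by 1.50 (SE 0.20, adjusted p = 0.00501), and more so in knockdown against control (2.06) than in mutant rescue against rescue (0.94), with an interaction of -1.12 (adjusted p = 0.0104). The cysteine protease gene CTSB was higher by 0.79 (SE 0.09, adjusted p = 0.00306). TFEB, the transcription factor known to drive lysosomal genes, was not called (difference 0.20, adjusted p = 0.457); it was chosen after its value was seen.

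Promoters are shown for 2 of these genes because the lysosomal list shares a known element, the CLEAR box that TFEB and its relatives bind. They are RefSeq sequences of GRCh38.p14, from 250 bases before to 50 after the annotated start, with matches to TCACGTGA or TCACGTGG on either strand in capitals (CTSD, chr11:1763878-1764177, minus strand; GAA, chr17:80101331-80101630, plus strand).
CTSD: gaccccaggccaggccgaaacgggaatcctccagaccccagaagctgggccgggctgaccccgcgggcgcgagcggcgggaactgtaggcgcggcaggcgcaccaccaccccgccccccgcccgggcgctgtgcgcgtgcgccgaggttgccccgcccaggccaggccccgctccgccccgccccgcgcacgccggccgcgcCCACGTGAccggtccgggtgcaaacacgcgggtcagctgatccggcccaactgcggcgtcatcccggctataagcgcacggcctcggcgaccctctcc
GAA: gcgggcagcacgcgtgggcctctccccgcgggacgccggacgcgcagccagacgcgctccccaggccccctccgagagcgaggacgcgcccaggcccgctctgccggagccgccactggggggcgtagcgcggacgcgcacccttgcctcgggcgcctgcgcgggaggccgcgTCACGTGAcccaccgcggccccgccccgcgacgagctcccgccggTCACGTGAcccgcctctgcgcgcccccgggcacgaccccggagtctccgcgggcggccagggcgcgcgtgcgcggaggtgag
The CTSD window holds 1 match, with its first base at position -48 from the start, read on the other strand as TCACGTGG, and the GAA window holds 2, which read the same on both strands, at -77 and -32. Neither window holds a match of the other 3 motifs searched. Of the 29 tested lysosomal genes 19 had a promoter in the table and 8 of those (42.1%) held the element, against 2.63% of all promoters and 4.42% of those of tested genes. Among genes with a promoter in the table, the share was 5.39% of those called higher and 5.14% of those called lower. The motifs were chosen with the values known, and a match describes the letters, not binding.

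Of the 10 largest increases chosen by rule, PCSK5 had the highest difference. PCSK5, a proprotein convertase, had log2 levels of 13.48 and 13.74 in knockdown and 13.55 and 13.93 in mutant rescue libraries, against 10.09 and 10.95 in control and 11.60 and 12.32 in rescue libraries. The loss libraries lay close together and above all others, by 2.43 (SE 0.30, limma adjusted p = 0.00386), a ratio of 5.41. C3, the central complement component, had 10.40 and 10.56 in knockdown and 10.77 and 11.54 in mutant rescue libraries, against 8.61 and 8.22 in control and 9.82 and 9.74 in rescue libraries. It was 3.3-fold higher, by 1.72 (SE 0.19, adjusted p = 0.00254). OLR1, a scavenger receptor for oxidized lipoproteins, was higher by 1.64 (SE 0.24, adjusted p = 0.00736), and SIGLEC6, a sialic acid-binding receptor, by 1.60 (SE 0.29, adjusted p = 0.0136). SORL1, a sorting receptor, MCEMP1, a myeloid membrane protein, FCER2, the low-affinity IgE receptor, and FCGRT, the neonatal Fc receptor that recycles IgG, were higher by 1.33 to 1.44 with adjusted p of 0.000438 to 0.00933. FCGRT had the smallest error of these, with 12.19 and 12.19 in knockdown and 12.77 and 13.05 in mutant rescue libraries, against 10.72 and 10.94 in control and 11.60 and 11.63 in rescue libraries. The call for SIGLEC6 was lost without knockdown replicate 1 (adjusted p = 0.0511) or control replicate 1 (0.0598).

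Monocyte and macrophage genes followed the same direction. Of 28 tested members of that list 12 were called higher and 0 lower, against 4.31% of all genes called higher, with a median difference of 0.48. Of the 28, 4 had a negative sign. In knockdown against control 16 were called higher (median 0.54), and in mutant rescue against rescue 7 (median 0.335), against 5.35% and 4.62% of all genes. The interaction was called for 6, all negative, against 4.49% of all genes. Rescue libraries had mean list levels of 9.28 and 9.26, near knockdown (9.38 and 9.39) and above control (8.67 and 8.78). Mutant rescue libraries had 9.53 and 9.605. LYZ, the lysozyme of granulocytes and monocytes, had log2 levels of 17.13 and 17.07 in knockdown and 17.86 and 18.51 in mutant rescue libraries, against 14.99 and 15.36 in control and 16.66 and 16.88 in rescue libraries. It was 3.18-fold higher, by 1.67 (SE 0.19, limma adjusted p = 0.00254), but by 0.92 and not called after quantile normalization (adjusted p = 0.102). VCAN, a proteoglycan of classical monocytes, was higher by 1.07 (SE 0.17, adjusted p = 0.00971), the calcium-binding protein gene S100A8 by 0.60 (SE 0.10, adjusted p = 0.00937) and AIF1, an actin-bundling protein of macrophages, by 0.64 (SE 0.11, adjusted p = 0.0108). The call for AIF1 was lost without control replicate 1 (adjusted p = 0.0528). CD14 and CSF1R, chosen after their values were seen, were not called (differences of 0.16 and 0.65, adjusted p = 0.319 and 0.112). The number of members called was 4 without knockdown replicate 1, 6 without knockdown replicate 2, 3 without control replicate 1, 7 without rescue replicate 1 and 3 without the construct term. Beside these genes, PECAM1, listed as a marker of endothelium but also expressed by monocytes, was at 12.79 and 12.88 in knockdown and 13.32 and 13.05 in mutant rescue libraries, against 10.96 and 10.94 in control and 12.42 and 12.67 in rescue libraries (difference 1.26, SE 0.22, adjusted p = 0.0122, lost without control replicate 1 at 0.0538). The endothelial marker VWF stayed below the filter.

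Granule and antigen presentation genes gave smaller counts. Of 14 tested primary granule and granulocyte genes 3 were called higher, against 4.31% of all genes, with a list median of 0.17: CEBPE, a factor of granulocyte maturation (0.73, SE 0.10, limma adjusted p = 0.00441), CSF3R, the receptor of granulocyte colony-stimulating factor (0.73, SE 0.15, adjusted p = 0.0219), and the ribonuclease gene RNASE3 (0.42, SE 0.10, adjusted p = 0.0285). CSF3R lost its call without knockdown replicate 1 (0.0829), knockdown replicate 2 (0.075), control replicate 1 (0.0843) or control replicate 2 (0.0558), and RNASE3 without either knockdown replicate (0.0921 and 0.0756), control replicate 1 (0.107) or either rescue replicate (0.0779 and 0.0671). The granule count was 1 without either knockdown replicate or control replicate 1, 0 without the construct term and 5 with library weights. Of the 14 granule genes 0 were called lower, but 5 had a negative difference. In knockdown against control the list median was -0.02, with 2 called higher and 3 lower, against 5.35% and 7.45% of all genes. In mutant rescue against rescue it was 0.196, with 2 called higher and 1 lower, against 4.62% and 5.89% of all genes. Of 12 MHC class II genes 4 were called higher and 0 lower, against 4.31% and 3.49% of all genes, with a list median of 0.19. The number called higher was 0 without the construct term. The list was mixed in sign, with 7 positive and 5 negative differences. For 1 member all 4 loss libraries lay below all 4 intact libraries, against 6.95% of all genes. Within the pairs, 2 were called higher and 1 lower in knockdown against control, and 6 higher and 1 lower in mutant rescue against rescue. HLA-DMA, which helps load peptides on class II, had log2 levels of 9.40 and 9.50 in knockdown and 9.96 and 10.07 in mutant rescue libraries, against 8.61 and 9.08 in control and 8.99 and 9.10 in rescue libraries (difference 0.79, SE 0.13, adjusted p = 0.00907). The others called higher over both pairs were HLA-DQB1, HLA-DMB and CD74, with differences of 0.57, 0.50 and 0.46. Only HLA-DMA of these 4 remained called without each library in turn, and the number called was 1 without knockdown replicate 1 or control replicate 1, and 2 without knockdown replicate 2, mutant rescue replicate 1, rescue replicate 1 or rescue replicate 2.

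**Figure D3:**
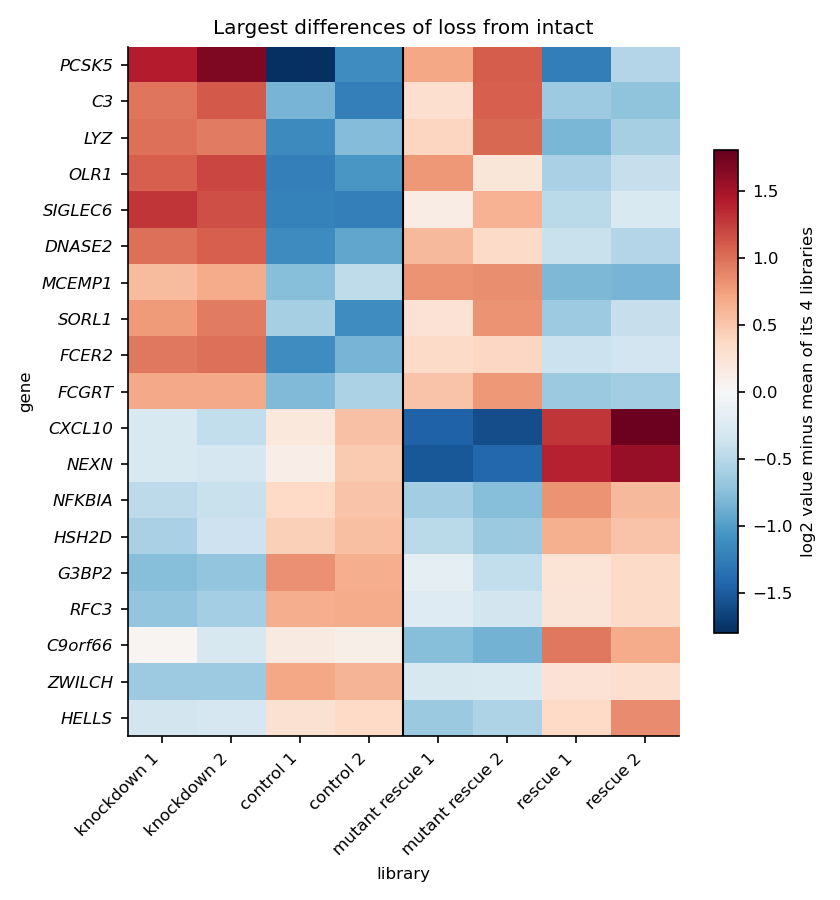
Log2 value minus the mean of the 4 libraries with or without a construct, for the 10 genes that rose most and, under them, 9 of the 10 that fell most; red is above and blue below that mean, and knockdown stands left of control and mutant rescue left of rescue. In both blocks the loss libraries are above the intact libraries for the upper 10 genes, such as PCSK5 (2.43), and below them for the lower 9, such as CXCL10 (-1.89).

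DNA replication genes were lower in loss libraries. Of 47 S phase genes, all tested, 29 were called lower and 0 higher, against 3.49% of all genes called lower, and 46 of 47 had a negative sign, with a median of -0.51. The mean log2 level of the list was 9.89 and 9.92 in knockdown and 9.90 and 9.82 in mutant rescue libraries, against 10.47 and 10.44 in control and 10.26 and 10.25 in rescue libraries. The 4 loss libraries were nearly level and below every intact library. The number called was 13 without knockdown replicate 1, 18 without knockdown replicate 2 15 without control replicate 1 and 14 without the construct term, with list medians between -0.51 and -0.47 whichever library was left out.

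EXO1, an exonuclease of mismatch repair, had log2 levels of 8.73 and 8.94 in knockdown and 8.62 and 8.35 in mutant rescue libraries, against 9.83 and 9.60 in control and 9.32 and 9.39 in rescue libraries. It fell by 0.87 (SE 0.10, limma adjusted p = 0.0031), with like values in both pairs (-0.88 in knockdown against control and -0.86 in mutant rescue against rescue). MCM7, a subunit of the replicative helicase, had 11.88 and 11.91 in knockdown and 11.77 and 11.69 in mutant rescue libraries, against 12.46 and 12.52 in control and 12.35 and 12.36 in rescue libraries. It fell by 0.61 (SE 0.07, adjusted p = 0.00353), a small change with little spread. DTL, the substrate receptor of a ubiquitin ligase that acts on chromatin-bound PCNA, fell by 0.86 (SE 0.11, adjusted p = 0.00386). RFC3, a subunit of the clamp loader, and HELLS, a chromatin remodeler, were among the 10 largest decreases, by 0.94 (adjusted p = 0.00756) and 0.92 (adjusted p = 0.00806). PCNA, the clamp itself, and E2F1, both chosen after their values were seen, were not called, with differences of -0.36 (adjusted p = 0.105) and 0.13 (adjusted p = 0.591).

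Promoters of MCM7 and EXO1 are shown because genes of this list are known to share the element of the E2F factors. They are RefSeq windows of GRCh38.p14 as above, with TTTCCCGC, TTTGGCGC, TTTCGCGC or TTTGCCGC on either strand in capitals (MCM7, chr7:100101348-100101647, minus strand; EXO1, chr1:241847954-241848253, plus strand).
MCM7: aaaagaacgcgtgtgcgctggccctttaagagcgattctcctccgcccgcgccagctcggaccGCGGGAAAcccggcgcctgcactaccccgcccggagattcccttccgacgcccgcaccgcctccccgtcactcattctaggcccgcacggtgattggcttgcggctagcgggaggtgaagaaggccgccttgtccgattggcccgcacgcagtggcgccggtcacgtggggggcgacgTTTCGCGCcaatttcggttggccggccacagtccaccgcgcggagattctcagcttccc
EXO1: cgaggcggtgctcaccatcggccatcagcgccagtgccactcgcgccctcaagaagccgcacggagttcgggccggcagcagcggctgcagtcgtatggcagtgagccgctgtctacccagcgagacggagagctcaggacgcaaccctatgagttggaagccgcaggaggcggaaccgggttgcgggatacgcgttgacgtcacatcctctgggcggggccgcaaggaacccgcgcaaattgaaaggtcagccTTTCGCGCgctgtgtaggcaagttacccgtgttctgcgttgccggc
The MCM7 window holds 2 matches, with first bases at -187 and -9 from the start, and that of EXO1 holds 1 at position 5. MCM7 also holds 1 match each to the CLEAR and the kappa B element, and neither overlaps those in capitals. Of the 47 S phase genes 36 had a promoter in the table and 19 of these (52.8%) held the element, against 3.33% of all promoters and 5.45% of those of tested genes. The share was 10.5% of the 370 genes called lower that had a promoter in the table and 3.19% of the 408 called higher. The genes called lower include 29 of the S phase list, so their share is no separate observation.

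Mitotic genes were lower in smaller number. Of 54 tested G2/M genes 14 were called lower and 0 higher, against 3.49% of all genes called lower, with a median of -0.31 over both pairs, -0.44 in knockdown against control and -0.13 in mutant rescue against rescue. BUB1, a kinase of the spindle checkpoint, had log2 levels of 9.55 and 9.69 in knockdown and 9.41 and 9.29 in mutant rescue libraries, against 10.36 and 10.16 in control and 9.98 and 10.00 in rescue libraries. The difference was -0.64 in each pair and over both (SE 0.08, limma adjusted p = 0.00451). TTK, which recruits the checkpoint to kinetochores, fell by 0.75 (SE 0.12, adjusted p = 0.00969), CENPF, a kinetochore protein, by 0.70 (SE 0.12, adjusted p = 0.0101), and LBR, the lamin B receptor, by 0.59 (SE 0.10, adjusted p = 0.0106; 0.0513 without knockdown replicate 1). ZWILCH, a kinetochore protein outside the list, fell by 0.93 (SE 0.14, adjusted p = 0.00785), more in knockdown against control (-1.30) than in mutant rescue against rescue (-0.56; interaction 0.74, adjusted p = 0.0267). MKI67 and CDK1, chosen in the same way, were not called (-0.13 and -0.39, adjusted p = 0.728 and 0.072). The count was 4 without knockdown replicate 1 or control replicate 1, 6 without knockdown replicate 2, and 8 without control replicate 2 or rescue replicate 1. It was 5 without the construct term, 9 with no filter, 29 with the group means model and 38 with library weights.

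CDKN1A, the p21 inhibitor of cyclin-dependent kinases, had log2 levels of 14.13 and 14.12 in knockdown and 14.57 and 14.43 in mutant rescue libraries, against 13.16 and 13.28 in control and 13.80 and 13.80 in rescue libraries. No loss library overlapped an intact one, and the difference was 0.80 (SE 0.09, limma adjusted p = 0.00291). It was one of 5 p53 targets called higher among 24 tested, against 4.31% of all genes, with 0 lower and a list median of 0.12. The others that were named by rule, the death effector gene BAX (0.52), the kinase gene PLK2 (0.45) and the TRAIL receptor gene TNFRSF10B (0.35), lost their calls in 6 or 7 of the 8 cases where 1 library was left out (up to adjusted p = 0.0914, 0.115 and 0.142). The count of p53 targets was 1 without knockdown replicate 1, mutant rescue replicate 1, control replicate 1 or rescue replicate 2, and 2 without knockdown replicate 2, control replicate 2 or rescue replicate 1. It was 3 with the replicate number as a block, 1 with no filter and 0 without the construct term.

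Of the 19 tested genes of the HOXA and MEIS1 program, which sustains KMT2A-rearranged leukemia, 5 were called lower and 0 higher, against 3.49% of all genes, with a median of -0.32. HOXA9 had log2 levels of 10.65 and 10.71 in knockdown and 10.71 and 10.84 in mutant rescue libraries, against 11.33 and 11.42 in control and 11.22 and 11.11 in rescue libraries. It fell by 0.54 (SE 0.09, limma adjusted p = 0.0105), with all 4 loss libraries below all 4 intact ones. SATB1, a chromatin organizer, fell by 0.70 (SE 0.11, adjusted p = 0.00771), and the demethylase family gene JMJD1C by 0.54 (SE 0.10, adjusted p = 0.0126). MEF2C, a transcription factor, fell by 0.52 (adjusted p = 0.0381) and the receptor kinase gene FLT3 by 0.44 (adjusted p = 0.0474), and these 2 calls were lost in 7 and 6 of the 8 cases without 1 library. MEIS1 itself, chosen after its value was seen, differed by -0.06 (adjusted p = 0.79). HOXA9 and JMJD1C lost their calls without knockdown replicate 1 (adjusted p = 0.0516 and 0.0513) and control replicate 1 (0.0526 and 0.0607). The count was 1 without knockdown replicate 1 or control replicate 1 and 3 without knockdown replicate 2 or rescue replicate 1. It was 2 without the construct term, 3 with no filter and 9 with either the group means model or library weights. Of 9 tested genes of the leukemia stem cell score 0 were called by limma, and the member with the highest level, SOCS2, a suppressor of cytokine signaling, differed by -0.22 (SE 0.08, adjusted p = 0.119).

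The list of 23 NF-kB and inflammatory genes was mixed. Of its members 2 were called higher and 3 lower, against 4.31% and 3.49% of all genes, with a median of -0.07. NFKBIA, the inhibitor that holds NF-kB in the cytoplasm, had log2 levels of 12.35 and 12.42 in knockdown and 12.24 and 12.09 in mutant rescue libraries, against 13.19 and 13.34 in control and 13.66 and 13.44 in rescue libraries. It fell by 1.14 (SE 0.12, limma adjusted p = 0.00213), a ratio of 0.455, with a wide gap between the 4 and 4 libraries. NFKBIZ, an atypical nuclear inhibitor of the family, had 9.40 and 9.44 in knockdown and 9.13 and 8.97 in mutant rescue libraries, against 10.24 and 9.87 in control and 10.12 and 10.05 in rescue libraries (difference -0.84, SE 0.12, adjusted p = 0.00635). TNFAIP3, the ubiquitin-editing enzyme A20, fell by 0.90 (SE 0.23, adjusted p = 0.0414), with -0.34 and no call in knockdown against control (adjusted p = 0.276) and -1.47 in mutant rescue against rescue (interaction adjusted p = 0.0509), and lost its call without any 1 library except control replicate 2 (up to adjusted p = 0.121). IL1B, the cytokine interleukin 1 beta, was at low levels, 3.65 to 4.09, and was higher by 0.29 (SE 0.05, adjusted p = 0.0133), which became 0.16 when a pseudocount of 1 ppm was added and was lost without knockdown replicate 1 (0.0579) or control replicate 1 (0.0607). The number of list members called higher was 0 without knockdown replicate 1 or control replicate 1, and 1 without each of the other libraries. It was also 1 after a median shift or quantile normalization. HSH2D, a signaling adaptor of hematopoietic cells, was the fourth largest decrease (-1.06, SE 0.10, adjusted p = 0.00142), and G3BP2, a stress granule protein, the fifth (-1.03, SE 0.17, adjusted p = 0.00962).

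The NFKBIA promoter is shown because it is a textbook target of the factor it inhibits. The RefSeq window of GRCh38.p14 (chr14:35404700-35404999, minus strand) has a match to the kappa B element in capitals.
NFKBIA: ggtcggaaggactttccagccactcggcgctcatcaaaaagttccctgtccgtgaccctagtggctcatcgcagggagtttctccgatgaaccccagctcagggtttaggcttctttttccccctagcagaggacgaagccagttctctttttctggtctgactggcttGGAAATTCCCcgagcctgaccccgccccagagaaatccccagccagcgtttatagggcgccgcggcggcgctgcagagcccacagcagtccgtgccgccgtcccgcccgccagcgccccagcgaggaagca
That match begins at position -81 from the start. The element was found in 8 of 19 promoters of the list (42.1%), against 5.72% of all promoters and 6.48% of those of tested genes. Among genes with a promoter in the table, the share was 7.57% of those called lower and 7.84% of those called higher.

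Of 20 MYC and glutamine metabolism genes 5 were called lower and 1 higher, against 3.49% and 4.31% of all genes (median -0.12). SLC38A1, a glutamine transporter, had log2 levels of 9.12 and 9.27 in knockdown and 9.14 and 9.04 in mutant rescue libraries, against 10.41 and 10.20 in control and 9.69 and 9.73 in rescue libraries (difference -0.87, SE 0.12, limma adjusted p = 0.00494). PSAT1, of serine synthesis, and ASNS, asparagine synthetase, both fell by 0.44 (adjusted p = 0.0174 and 0.0177), and the cystine transporter gene SLC7A11 was higher by 0.49 (adjusted p = 0.038), 3 calls that were lost without either knockdown replicate, control replicate 1 or rescue replicate 1 (adjusted p up to 0.133), and that of SLC7A11 also without control replicate 2 (0.0816). The count of lower genes was 1 without those 4 libraries and 3 without mutant rescue replicate 2, and it was 1 without the construct term, 3 with no filter and 9 with library weights. MYC itself, chosen after its value was seen, differed by -0.02 (adjusted p = 0.938). CBS, of the transsulfuration pathway, fell by 0.69 (SE 0.09, adjusted p = 0.00441), and the tryptophanyl-tRNA synthetase gene WARS by 0.73 (SE 0.10, adjusted p = 0.00592).

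In lipid metabolism, MSMO1, a sterol oxidase, had log2 levels of 10.10 and 10.13 in knockdown and 10.42 and 10.32 in mutant rescue libraries, against 9.26 and 9.36 in control and 9.84 and 9.82 in rescue libraries. It was higher by 0.67 (SE 0.09, limma adjusted p = 0.00441) and was the one call among 27 cholesterol genes, whose median was -0.003. Over all genes 4.31% were called higher and 3.49% lower. Of 21 fatty acid oxidation genes 3 were called higher, against that 4.31% (median 0.12): the carnitine carrier gene SLC25A20 (0.49, adjusted p = 0.0182), PPARD, a nuclear receptor that drives this pathway (0.43, adjusted p = 0.0188), and HADHB, of the mitochondrial trifunctional protein (0.32, adjusted p = 0.0494). That count fell to 0 without either knockdown replicate, control replicate 1, rescue replicate 1 or the construct term, and was 5 with the group means model. Of 29 genes of phospholipid acyl chains and fatty acid synthesis, the lysophosphatidylinositol acyltransferase gene MBOAT7 was called higher (0.52, adjusted p = 0.0255), and the desaturase genes FADS2 (-0.50, adjusted p = 0.0275) and SCD (-0.61, adjusted p = 0.0471) were called lower, that is 1 member against 4.31% of all genes and 2 against 3.49%. Each of these 3 calls was lost in 5 to 7 of the 8 cases without 1 library, with adjusted p up to 0.0981, 0.0993 and 0.145. Of 29 glycolysis and hypoxia genes 3 were called higher and 2 lower, against 4.31% and 3.49% of all genes, with a median of 0.04 that turned to -0.02 after quantile normalization. After that scaling 5 were called lower, and after a median shift 1 was called higher. The hormone gene ADM (0.46), the mitophagy receptor gene BNIP3L (0.36), the glucose transporter gene SLC2A1 (-0.35) and the collagen hydroxylase gene P4HA1 (-0.60) were the ones named by rule, with adjusted p of 0.0357 to 0.0493. Their calls were lost in 6 or 7 of the 8 cases without 1 library (adjusted p up to 0.152), and leaving out either knockdown replicate, control replicate 1 or rescue replicate 1 brought both counts to 0.

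Of 12 arginine methyltransferases and partners 3 were called lower, against 3.49% of all genes: CLNS1A, a partner of PRMT5 in methylating spliceosomal proteins (-0.71, SE 0.12, limma adjusted p = 0.0111), PRMT3, which methylates a ribosomal protein (-0.56, SE 0.12, adjusted p = 0.0202), and PRMT6. The median of the list was -0.11. The count was 0 without knockdown replicate 1 or control replicate 1, 1 without knockdown replicate 2, rescue replicate 1 or the construct term, and 5 with the group means model or library weights. CLNS1A reached adjusted p of 0.0508 without knockdown replicate 1 and 0.0528 without control replicate 1, and PRMT3 lost its call without those (0.069 and 0.071), knockdown replicate 2 (0.0559) or rescue replicate 1 (0.0688). Of 23 tested genes of the IGF2BP family and the m6A factors, IGF2BP2 was the 1 called, and 2 were called lower after quantile normalization, 4 with the group means model and 7 with library weights. Its paralogs IGF2BP1 and IGF2BP3, chosen after their values were seen, differed by -0.08 and 0.03 (adjusted p = 0.701 and 0.944). Of 40 MYC targets and ribosome biogenesis genes 5 were called lower and 0 higher, against 3.49% of all genes called lower (median -0.24, made up of -0.39 in knockdown against control and -0.07 in mutant rescue against rescue). DDX21, a nucleolar helicase, had log2 levels of 11.54 and 11.55 in knockdown and 11.23 and 11.42 in mutant rescue libraries, against 12.26 and 12.21 in control and 11.84 and 12.04 in rescue libraries (difference -0.66, SE 0.08, adjusted p = 0.00441). That count was 1 without either knockdown replicate or control replicate 1 and 2 without rescue replicate 1. It was 9 after quantile normalization, 2 without the construct term, 3 with no filter, 15 with the group means model and 23 with library weights.

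Transcripts encoded by mitochondrial DNA had a positive difference in 13 of 13 genes, with a median of 0.45, but 1 was called higher, against 4.31% of all genes. The number called was 6 after quantile normalization, 9 with library weights, 5 with the group means model and 2 with the replicate number as a block. MT-CO1, a subunit of cytochrome c oxidase, had log2 levels of 14.07 and 14.12 in knockdown and 14.12 and 14.87 in mutant rescue libraries, against 13.18 and 13.51 in control and 13.22 and 13.29 in rescue libraries. The loss libraries were all above the intact ones, by 0.99 (SE 0.17, limma adjusted p = 0.0116; 0.0528 without control replicate 1). The number called among the 13 was 5 without control replicate 2 and 0 without control replicate 1. Of 77 cytosolic ribosomal protein genes 0 were called higher or lower by limma. Their median difference was -0.30 in knockdown against control and 0.50 in mutant rescue against rescue, and the mean level was 11.88 and 11.86 in knockdown and 11.95 and 12.34 in mutant rescue libraries, against 12.02 and 12.30 in control and 11.73 and 11.57 in rescue libraries. Mutant rescue replicate 2 and control replicate 2 stood above the replicate of their own group in this list.

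**Figure D4:**
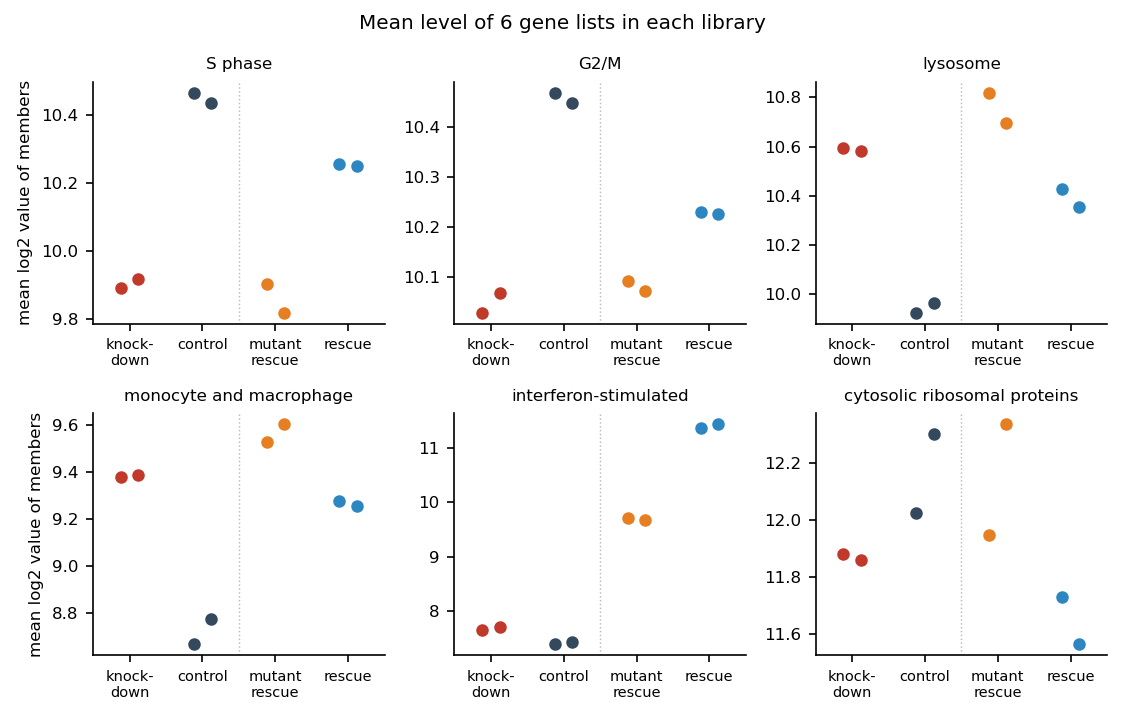
Mean log2 level of the tested members of 6 gene lists in each library (1 point per library; each panel has its own vertical range that does not start at 0). The lysosome list (9.93 to 10.82) and the monocyte list are higher, and the S phase and G2/M lists lower, in both loss groups than in their intact partners; interferon-stimulated genes run from 7.40 to 11.43 with both construct groups on top.

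The function effect was not the same in both pairs for every gene. Of 13016 genes, 584 (4.49%) had a called interaction, the difference of mutant rescue from rescue minus that of knockdown from control, and in 455 (3.5%) the 2 differences had opposite signs. Of the 1015 genes of the function effect 26 of those higher and 24 of those lower had a called interaction. The count was 138 without knockdown replicate 1, 117 without knockdown replicate 2, 2057 without mutant rescue replicate 1, 224 without control replicate 1, 141 without control replicate 2 and 167 without rescue replicate 2.

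Interferon-stimulated genes were a group of this kind. Of 48 tested members 1 was called in the function effect, CXCL10, although the list median was -0.73. With the group means model, which takes the difference between the pairs out of the residual, 41 were called lower. In knockdown against control the median was 0.24, with 12 called higher and 1 lower, against 5.35% and 7.45% of all genes. In mutant rescue against rescue it was -1.72, with 46 called lower and 0 higher, against 5.89% of all genes called lower and 4.62% called higher. The interaction was called for 46 of 48, all negative, and for 35 to 47 without 1 library. IFIT3, an interferon-induced protein of antiviral defense, had log2 levels of 8.22 and 8.24 in knockdown and 12.30 and 12.18 in mutant rescue libraries, against 7.49 and 7.69 in control and 14.68 and 14.99 in rescue libraries. The construct libraries were far above the others, and rescue above mutant rescue. Its function effect of -0.98 (SE 0.53) was not called (limma adjusted p = 0.291), while the interaction was -3.24 (adjusted p = 0.00018). RSAD2, IFITM1, ISG20, OAS2, IFI27, OAS1, IFITM3, LGALS3BP and IFIT1, named by the same rule, had interactions between -3.25 and -2.50. CXCL10, a chemokine, had log2 levels of 5.72 and 5.56 in knockdown and 8.38 and 8.25 in mutant rescue libraries, against 6.20 and 6.52 in control and 11.13 and 11.61 in rescue libraries. It was the largest decrease (-1.89, SE 0.40, adjusted p = 0.0222), but -0.72 in knockdown against control and -3.06 in mutant rescue against rescue, and the call was lost without mutant rescue replicate 1 (0.0618) or rescue replicate 1 (0.0687). The authors' deposited log2 fold changes of CXCL10 in these pairs were -2.61 and -3.64. The authors' adjusted p was not below 0.05 for the first of these. NEXN, an actin-binding protein and the second largest decrease (-1.76, SE 0.39, adjusted p = 0.0273), had the same pattern, with 7.44 and 7.41 in knockdown and 8.87 and 8.99 in mutant rescue libraries, against 7.83 and 8.18 in control and 11.78 and 11.96 in rescue libraries, and lost its call without either mutant rescue (0.0702 and 0.0564) or either rescue replicate (0.0825 and 0.0583). With weights for library quality the differences were -1.05 for CXCL10 and -0.95 for NEXN. Of 18 MHC class I genes 1 was called lower, against 3.49% of all genes: PSMB8, an immunoproteasome subunit (-0.58, SE 0.11, adjusted p = 0.0147, and 0.0529 without rescue replicate 1). The list median was 0.13 in knockdown against control, with 2 called higher, against 5.35% of all genes. In mutant rescue against rescue it was -0.39, with 9 called lower, against 5.89% of all genes. The interaction was called for 5 members, all negative, against 4.49% of all genes.

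The IFIT3 promoter is shown because the interferon list shares a known element, the interferon-stimulated response element. Matches to GAAANNGAAA on either strand are in capitals in the RefSeq window of GRCh38.p14 (chr10:89327747-89328046, plus strand).
IFIT3: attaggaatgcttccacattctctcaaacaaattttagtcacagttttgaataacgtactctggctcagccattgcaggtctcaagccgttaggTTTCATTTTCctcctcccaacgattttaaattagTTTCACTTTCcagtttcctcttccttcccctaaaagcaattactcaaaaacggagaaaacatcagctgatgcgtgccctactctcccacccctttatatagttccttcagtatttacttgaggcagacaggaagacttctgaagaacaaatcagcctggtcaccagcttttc
Both matches lie on the other strand, with first bases at -156 and -122 from the start. Of 48 genes 37 had a promoter in the table and 25 of these (67.6%) held the element, against 3.65% of all promoters and 3.01% of those of tested genes. Among genes with a promoter in the table, the share was 2.16% of those called lower and 2.7% of those called higher in the function effect.

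**Figure D5:**
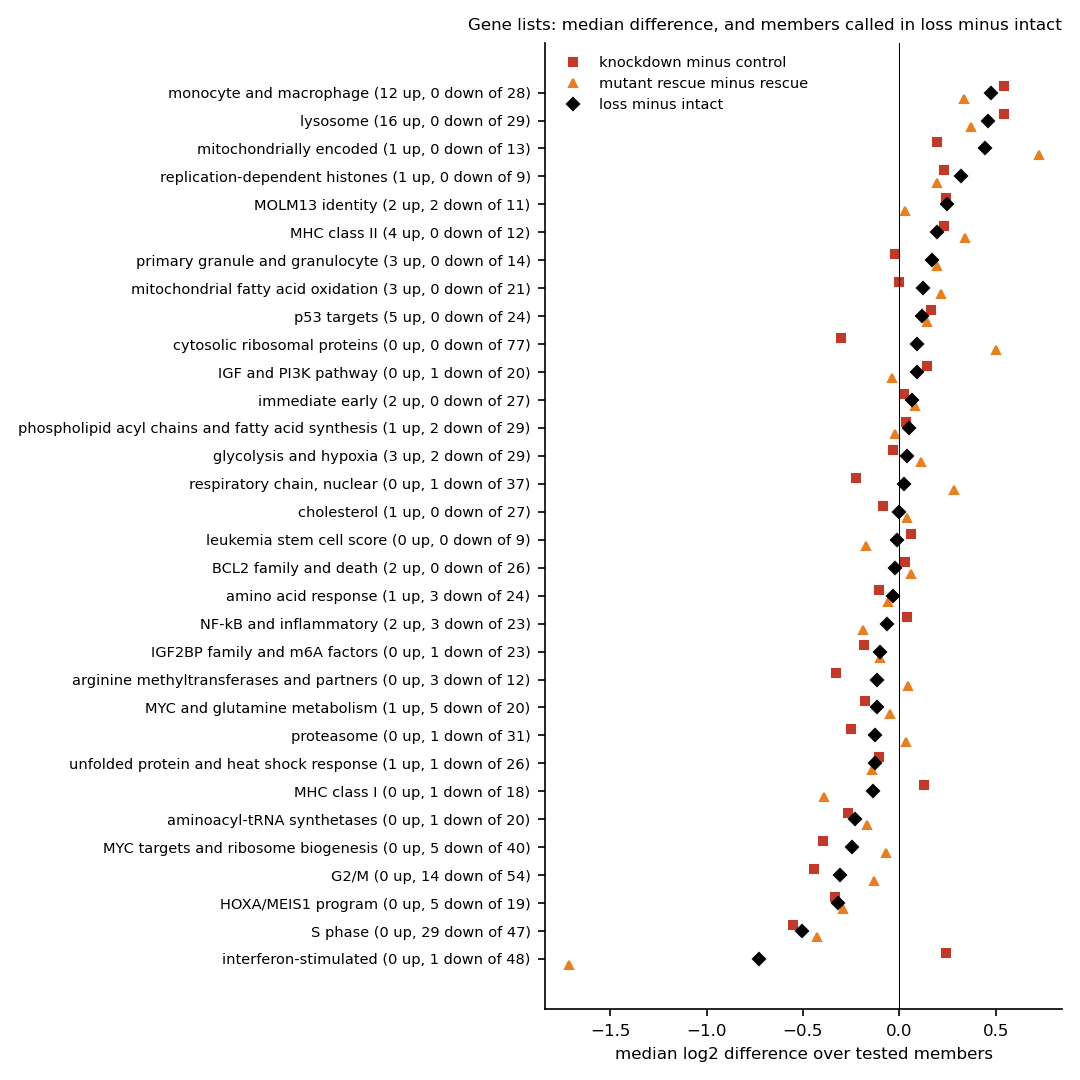
Median log2 difference over the tested members of each gene list for knockdown minus control (squares), mutant rescue minus rescue (triangles) and loss minus intact (diamonds); each label gives the members called higher (up) and lower (down) in loss minus intact of those tested. Lysosome (0.46) and monocyte (0.48) lists lie right of 0 and S phase (-0.51) left of it in all 3, while interferon-stimulated genes lie on opposite sides of 0 in the 2 pairs.

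Genes whose levels ran most like IGF2BP2 were found by Pearson's r over the 8 libraries after the means with and without a construct were removed, as a description, since these libraries share the effect itself. SCAMP1, a membrane trafficking protein, ICMT, which methylates prenylated proteins, CCDC50 and CCDC47 were among the 5 closest called genes, and 194 tested genes had an r of at least 0.95, of which 104 were called lower. ICMT had log2 levels of 8.90 and 8.99 in knockdown and 8.98 and 8.56 in mutant rescue libraries, against 10.28 and 9.95 in control and 9.62 and 9.28 in rescue libraries. Its difference was -0.92 (SE 0.15, limma adjusted p = 0.00962), and all loss libraries were below all intact ones. SCAMP1, CCDC50 and CCDC47 had differences of -0.41 to -0.58 and lost their calls without either knockdown replicate or control replicate 1, with adjusted p up to 0.138.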

How the data were processed

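Per the labels, poly(A) RNA of MOLM13 cells was sequenced in 8 libraries. GRCh38, kallisto, Trim Galore and HOMER are named, without versions or roles, per the submitters' processing notes. The deposited table holds the authors' log2 normalized values per gene and library, and, for 6 pairs of groups, their log2 fold changes with p-values from the authors. The fold changes were used only to set their size beside that of the log2 differences. For CXCL10, NEXN and C9orf66 the text also says where the authors' adjusted p was below 0.05. The table holds no counts, so depth is unknown and no counting interval could be given. The 2 libraries per group limit the precision.

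Of 35370 genes listed, 1 without a symbol, 26 with a number in place of one and 10937 at 0 in every library were left out. Genes at 1 ppm or more of the linear total in at least 2 libraries (13016) were tested with limma 3.58.1 in R 4.3.3, with function and construct as terms, a mean trend and 5 residual degrees of freedom. The interaction and each pair came from a group means model with 4 residual degrees of freedom. P-values were Benjamini-Hochberg adjusted over all tested genes and called below 0.05, and the fit was tested on simulated data. Text names IGF2BP2, PRMT6 and MFSD2A, the 10 largest called increases and decreases apart in both pairs, up to 4 called members per list by adjusted p (or the most abundant where none was called), the 10 interaction genes of opposite sign with the smallest adjusted p, and the 5 called genes most like IGF2BP2; genes outside this rule are marked. Some genes that meet the rule are not reported here. The comparison, the gene lists and the motifs were chosen with earlier results of these data known. Alternatives left out each library, changed the terms, filter, pseudocount, scaling, trend or library weights, or added the replicate number as a block. Promoters came from RefSeq, GRCh38.p14, matched by symbol.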

Additional observations from a re-analysis of the deposited data

Results flagged for a closer look

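Of the genes named, 26 had a function effect that differed between the pair without and the pair with a construct, by the interaction term of the group means model (limma, adjusted p below 0.05). Each value below is the difference of mutant rescue from rescue minus that of knockdown from control, on the log2 scale.

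The interaction was negative for 10 interferon-related genes: RSAD2 (-3.11), IFITM1 (-3.25), IFIT3 (-3.24), ISG20 (-2.82), OAS2 (-2.53), IFI27 (-2.77), OAS1 (-2.50), IFITM3 (-2.56), LGALS3BP (-3.12) and IFIT1 (-2.62). All 10 were below rescue in mutant rescue libraries (differences of -3.13 to -1.48) and above control in knockdown libraries (0.07 to 1.02). They were named for opposite signs in the 2 pairs, so that pattern was fixed by the choice. In knockdown against control RSAD2, IFIT3, OAS2 and OAS1 were called higher, and the others were not called (limma adjusted p = 0.0645 to 0.724). CXCL10 (-2.34), NEXN (-2.36) and C9orf66 (-1.36), an uncharacterized gene, were below their partner in both pairs and further below it in mutant rescue libraries. The size of this gap depends on the scale for CXCL10, which was low without a construct. Its authors' deposited log2 fold changes were -2.61 in knockdown against control and -3.64 in mutant rescue against rescue. In the same order those of NEXN were -0.95 and -3.51, and those of C9orf66 -0.37 and -2.15. In knockdown against control, NEXN alone of these genes had an authors' adjusted p below 0.05.

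Among genes higher in loss libraries the increase was smaller in mutant rescue against rescue for SIGLEC6 (-1.68), OLR1 (-1.28), PECAM1 (-1.25), FCER2 (-1.23), DNASE2 (-1.12) and CSF3R (-0.77). Among genes lower in loss libraries the decrease was smaller in mutant rescue against rescue for PRMT6 (0.94), G3BP2 (0.88), P4HA1 (0.80), RFC3 (0.75), ZWILCH (0.74) and PSMB5, a catalytic proteasome subunit (0.74). RPLP0, a protein of the ribosomal stalk, was not called in the function effect and had an interaction of 1.03, with -0.13 in knockdown against control and 0.90 in mutant rescue against rescue. No library stood apart from the other 3 of its function group in any of 66 groups of 4 tested by Dixon's criterion. Each group of 4 joins 2 groups that can differ in level, which widens the range. The test could therefore hardly show an outlying library. The library weights were 0.318 and 0.203 for the mutant rescue libraries and 0.560 to 3.003 for the others.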

How the results depend on the processing

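Of 105 gene results named by rule, 0 changed sign under the alternatives run. Most were named because they were called in these same libraries, so a change of sign was unlikely from the start. Genes chosen after their values were seen were not run under the alternatives. List medians near 0 did change sign: glycolysis and hypoxia was -0.02 after quantile normalization, and without 1 library the respiratory chain ran from -0.084 to 0.115 and cytosolic ribosomal proteins from -0.075 to 0.236. Among the 105, the call was lost for 9 with the replicate number as a block, 26 with no filter on low values, 5 after a median shift, 6 after quantile normalization, 4 without the mean trend, 1 with a pseudocount and 1 with library weights, and among 95 for 62 without the construct term. Leaving out 1 library often cost more calls among the 105. They were lost for 48 without knockdown replicate 1, 41 without knockdown replicate 2, 51 without control replicate 1 and 39 without rescue replicate 1. The losses were 18 and 13 without mutant rescue replicates 1 and 2, 21 without control replicate 2 and 23 without rescue replicate 2. The number of genes called in the function effect was 199 without the construct term (100 higher, 99 lower), 2284 with the group means model (1093 and 1191), 625 with no filter (361 and 264) and 3368 with library weights (1628 and 1740). That of the interaction was 234 with no filter and 277 with library weights. Without 1 library in turn, 241 to 985 genes were called, 153 to 589 higher and 88 to 445 lower, and 117 to 2057 in the interaction. In the same way IGF2BP2 ranged from -0.628 to -0.490 (adjusted p 0.0131 to 0.0789), PRMT6 from -0.850 to -0.615 (0.028 to 0.117) and MFSD2A from 0.1 to 0.296 (0.189 to 0.765). Without the construct term IGF2BP2 stayed at -0.532 with adjusted p = 0.149 and PRMT6 at -0.734 with 0.0628, and PRMT6 was at 0.063 with no filter, and MFSD2A was 0.370 with library weights (adjusted p = 0.0434). The cause of these shifts was not tested.

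Replicate numbers in the labels are shared by the groups. Correlations of same-numbered deviations ran from -0.02 to 0.41 over 6 pairs of groups, 5 of them positive and not all above 0.1. Whether same-numbered libraries shared a batch or preparation is not stated in the labels, and these values cannot settle it. With the replicate number as a block 891 genes were called (523 higher, 368 lower), of which 833 were among the 1015, and 739 in the interaction. Unknown depth and 2 libraries per group limit what low genes can show.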

Other observations

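Several genes with a small adjusted p are in none of the lists, and those in this paragraph were chosen after their values were seen. LGALS3, the lectin galectin 3, had log2 levels of 9.54 and 9.56 in knockdown and 10.30 and 10.31 in mutant rescue libraries, against 8.44 and 8.50 in control and 9.22 and 9.08 in rescue libraries (difference 1.12, SE 0.08, limma adjusted p = 0.000438). RNF130, a membrane-bound ubiquitin ligase, was higher by 1.16 and VASH1, a tubulin carboxypeptidase, by 1.32. TREM2, a lipid-sensing receptor of macrophages, was higher by 1.10 (adjusted p = 0.00121), and VSIG4, a complement receptor of tissue macrophages, by 0.84 (adjusted p = 0.00121). GRN, the lysosomal and secreted protein progranulin, had 14.77 and 14.73 in knockdown and 15.43 and 15.40 in mutant rescue libraries, against 13.46 and 13.51 in control and 14.56 and 14.51 in rescue libraries (difference 1.07, SE 0.11, adjusted p = 0.00165). The heme and iron genes HP, HMOX1 and FTH1, for haptoglobin, heme oxygenase and ferritin heavy chain, were higher by 1.26, 0.89 and 0.88. Among the lower genes, PLEK, a substrate of protein kinase C in blood cells, fell by 0.76, the nuclear receptor gene NR4A2 by 0.67 and the RNA-binding protein gene TARDBP by 0.72. G3BP1, the other main stress granule nucleator beside G3BP2, had 11.61 and 11.67 in knockdown and 11.68 and 11.59 in mutant rescue libraries, against 12.66 and 12.62 in control and 12.07 and 12.06 in rescue libraries, and fell by 0.71 (SE 0.12, adjusted p = 0.00994).

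Other lists held few calls, beside 4.31% of all genes called higher and 3.49% lower. Of 31 proteasome genes 1 was called lower, PSMB5 (-0.56), with a list median of -0.12. Of 20 aminoacyl-tRNA synthetases 1 was called lower and 0 higher (median -0.23), and of 37 nuclear genes of the respiratory chain 1 was called lower, NDUFS1 (-0.36), with a median of 0.02 that ran from -0.084 to 0.115 without 1 library. Of 26 unfolded protein response and heat shock genes, DNAJB9 was called higher (0.36) and DNAJA1 lower (-0.41). Of 27 immediate early genes EGR2 (0.57) and FOSL2 (0.52) were called higher, and of 26 genes of the BCL2 family and cell death BAX (0.52) and BCL2A1 (0.41). Of 24 genes of the amino acid response 1 was called higher and 3 lower (median -0.04). HIST1H2BK (0.52) was the 1 call among 9 replication-dependent histone genes, and HMGA1 (-0.42) among 20 genes of the IGF and PI3K pathway. Leaving out 1 library in turn moved these counts to between 0 and 4 per list and direction. After quantile normalization 3 proteasome genes and 3 aminoacyl-tRNA synthetases were called lower, and with library weights 9 and 11.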
